A study of Mus musculus with 12 samples.

Results

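The genes described here are the mouse Zfp zinc finger genes that were expressed in CTLL-2, an established line of mouse cytotoxic T cells that grows only with interleukin-2 (IL-2). They are the genes whose symbol is Zfp followed only by digits, without Zfp36, with at least 1 probe set whose mean signal over 11 arrays was 200 or more. Of 304 such Zfp genes on the array, 176 passed and 128 did not. The members were chosen by their level over all groups, so that level is a description only, and all 176 also passed the low-signal filter of the statistical fit. Zfp189 (mean signal 211) and Zfp90 (203) lay just inside the threshold, and Zfp473 (192) and Zfp324 (191) just outside. Of the 176, 10 reached the threshold only through the IL-2 arrays (mean of the other 8 arrays under 200), 4 only through the 4.5 h arrays and 2 only through the 30 min arrays. Such a gene had to be higher in that group, and those among the genes named below are pointed out. Zfp189 was such a gene through the IL-2 arrays (mean of the other 8 arrays 187). Zfp90 was one through the 30 min arrays (mean of the other 7 arrays 190). Values of a gene are those of its brightest probe set unless another is named.

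Most Zfp proteins carry tandem C2H2 zinc fingers, small zinc-holding folds that read DNA, and many also carry a KRAB domain. A KRAB domain recruits the corepressor Trim28, which brings the histone methyltransferase Setdb1 and heterochromatin proteins to silence the bound DNA, often an endogenous retrovirus. The genes multiplied by tandem duplication, so many lie in clusters of close relatives. Some Zfp proteins do other work, in ribosome assembly, RNA binding or protein ubiquitination.

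Every group had been grown in IL-2 at 50 U/mL and then starved of it for 14 h. The 30 min group (4 arrays) then received cycloheximide, a blocker of protein synthesis, at 20 µg/mL for 30 min. The 4.5 h group (4 arrays) had the same dose for 4.5 h, and the IL-2 group (4 arrays) had it for 30 min and then human recombinant IL-2 at 100 U/mL for 4 h. The labels do not say whether the drug stayed on during IL-2, and the arm with starved cells that had no cycloheximide is not analysed here. All arms used here therefore carry both starvation and cycloheximide, so what the drug itself did cannot be read from them. Nothing in the labels tells whether each replicate had a culture of its own, so the p-values reflect array-to-array spread, which may be technical.

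Replicate 3 of the IL-2 group stood apart and was left out. The summed signal of 9 T cell markers was 381 on it, against 158085 to 269032 on the others, and it read 19045 for the muscle factor Myod1 and 40277 for muscle actin Acta1. On the 11 arrays used, all 9 T cell markers exceeded 200, while all 4 B cell, 5 fibroblast and 3 erythroid markers and 3 of 5 myeloid markers stayed under 200. The summed signal of 5 muscle markers, nearly all from Ckm, was 3698 to 4855 at 4.5 h against 2278 to 3127 elsewhere. The log2 difference between the 3' and 5' Actb control probe sets, a sign of RNA integrity, was 0.42 to 0.80 at 4.5 h, 0.25 to 0.33 at 30 min and 0.22 to 0.27 with IL-2. The 4.5 h arrays shared a scan day with no other group, so in both comparisons that use them group and scan day cannot be told apart. The part of these differences in the results below was not tested.

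As a group, the Zfp genes were low after 30 min of cycloheximide and higher in both later groups. The median signal of the 176 genes was 383 to 440 on the 4 arrays at 30 min, 631 to 663 on the 4 arrays at 4.5 h, and 693 to 740 on the 3 IL-2 arrays. The ranges of the 3 groups did not overlap. Of the 176 genes, 119 (67.6%) had their lowest group mean at 30 min, compared with 35.3% of the 8476 genes of any name that reached the same signal. In this bulk RNA, fewer cells with a transcript and less of it per cell cannot be told apart.

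**Figure D1:**
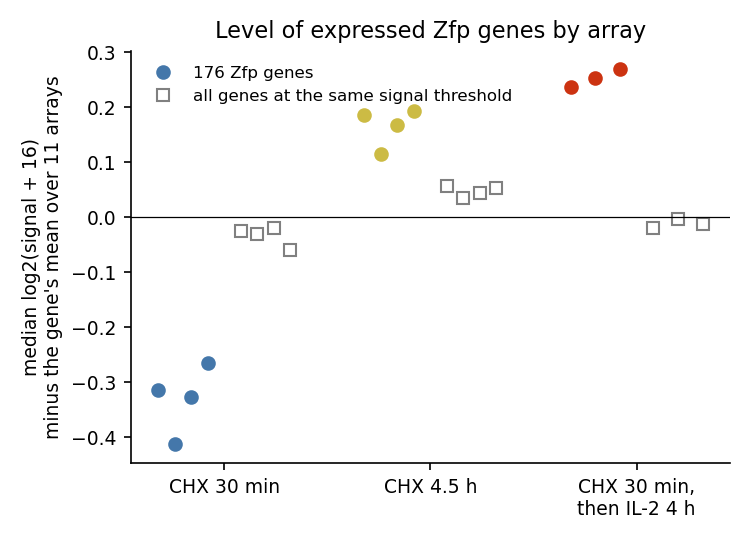
Median, over 176 Zfp genes (filled circles) and over 8476 genes at the same signal threshold (open squares), of log2(signal + 16) minus each gene's mean over the 11 arrays, by array and group. The Zfp genes sit between -0.41 and -0.27 at 30 min, between 0.11 and 0.19 at 4.5 h and between 0.24 and 0.27 with IL-2, while the other medians stay between -0.06 and 0.06.

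The first question was how these transcripts differed between the early and the late cycloheximide arrays without IL-2. Between 30 min and 4.5 h, 38 Zfp genes rose, 4 fell and 134 did not pass the test, which asked for a Benjamini-Hochberg adjusted p from limma under 0.05 and a difference of at least 2-fold. Of the 38, 1 (Zfp141) had reached the signal threshold only through the 4.5 h arrays. Of the 4, 1 (Zfp703) had reached it only through the 30 min arrays. The background was 8.31% rising and 5.39% falling among the 8476 genes at the same signal, and 6.48% and 6.76% among all 27022 probe sets tested. The median log2 difference of the Zfp genes was 0.54 (middle 50% of genes from 0.04 to 0.94), against 0.09 for the genes at the same signal. By adjusted p alone 91 were higher and 12 lower, against a background of 26.0% and 18.0%. In 91 genes every array at 4.5 h was above every array at 30 min, and in 14 every one was below, against a background of 28.3% and 19.7%.

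The gene with the largest rise was Zfp995, a member of a large cluster on chromosome 17. It read 306, 144, 399 and 541 at 30 min, 2716, 2179, 2605 and 3207 at 4.5 h, and 866, 901 and 1483 with IL-2. The 3 groups did not overlap, with the 4.5 h arrays highest, and the log2 difference over time was 3.01 ± 0.34 (SE, limma adjusted p = 0.000184). Its other probe set had a log2 difference of 1.29 over the same interval.

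Zfp930, in a Zfp cluster on chromosome 8, read 117, 81.4, 95.9 and 133 at 30 min, 641, 626, 748 and 842 at 4.5 h, and 372, 393 and 500 with IL-2. On this probe set the groups were again fully separated in that order, and the log2 difference over time was 2.58 ± 0.18 (adjusted p = 1.48e-05). Its other probe set also rose over time, by 1.97 ± 0.19. At matched time that probe set had 0.30 ± 0.20, against -0.74 ± 0.19 on the brightest, so the order of the 2 later groups depends on the probe set. Zfp788, from chromosome 7, read 146, 134, 215 and 132 at 30 min and 908, 517, 767 and 932 at 4.5 h, a log2 difference of 2.20 ± 0.22. All of its late arrays were far above the highest early array.

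Zfp326, whose human counterpart belongs to a complex that links RNA polymerase to splicing, went from a mean of 216 ± 66.4 (SD, n = 4) to 774 ± 194 (n = 4), a log2 difference of 1.78 ± 0.23. Zfp451, whose human counterpart is a SUMO ligase, went from 341 ± 124 to 1115 ± 97.9, a difference of 1.72 ± 0.21. Its 4 tested probe sets spread from -0.70 to 1.72 over time, so they did not move alike. Between the 4.5 h and IL-2 groups the brightest had -0.33 ± 0.23 and another 0.58 ± 0.26, neither called. The remaining probe sets of Zfp451 rose there, by 1.18 ± 0.24 and 1.51 ± 0.15. Zfp623, a gene with no function stated here, read 578, 455, 735 and 561 at 30 min and 1901, 1833, 1873 and 1956 at 4.5 h. The late arrays lay close together and far above the early ones, and the difference was 1.69 ± 0.15 (adjusted p = 4.99e-05).

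Zfp141 rose by a log2 difference of 1.66 ± 0.26, from 159 ± 42.2 to 529 ± 83.6. It reached the signal threshold only through the 4.5 h arrays (mean of the other 7 arrays 198). Its being high there is thus in part how it was chosen. Zfp942 rose by 1.73 ± 0.25 on its brightest probe set, from 407 ± 133 to 1353 ± 279. Its dimmer probe set fell over the same interval, by 1.34 on the log2 scale, the only such opposite pair among the 86 members with several tested probe sets. Among the 18 rising or falling members with several tested probe sets, 28 of the 36 other probe sets had the same sign and 5 also passed the test.

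Only 4 members fell over time. Zfp871 read 1427, 1240, 1238 and 1676 at 30 min, 614, 708, 503 and 566 at 4.5 h, and 1714, 1689 and 1466 with IL-2. The 4.5 h arrays were the low ones, and the log2 difference over time was -1.20 ± 0.15 (adjusted p = 0.000319). Zfp217, whose human counterpart ZNF217 is a corepressor-binding factor amplified in breast cancer, read 1351, 1229, 813 and 1334 at 30 min and 549, 595, 525 and 492 at 4.5 h, a difference of -1.08 ± 0.20.

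Zfp597 read 272, 279, 220 and 514 at 30 min and 124, 117, 127 and 136 at 4.5 h. Its difference over time was -1.18 ± 0.23, and without replicate 4 of the 30 min group it was -0.94, short of the 2-fold threshold. Zfp703, whose human counterpart ZNF703 is a breast cancer corepressor, read 431, 563, 396 and 320 at 30 min and 203, 213, 189 and 160 at 4.5 h. Its difference of -1.08 ± 0.28 became -0.94 without replicate 2 of the 30 min group, also short of the threshold. Zfp703 reached the signal threshold only through the 30 min arrays (mean of the other 7 arrays 136), so its fall is in part how it was chosen.

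**Figure D2:**
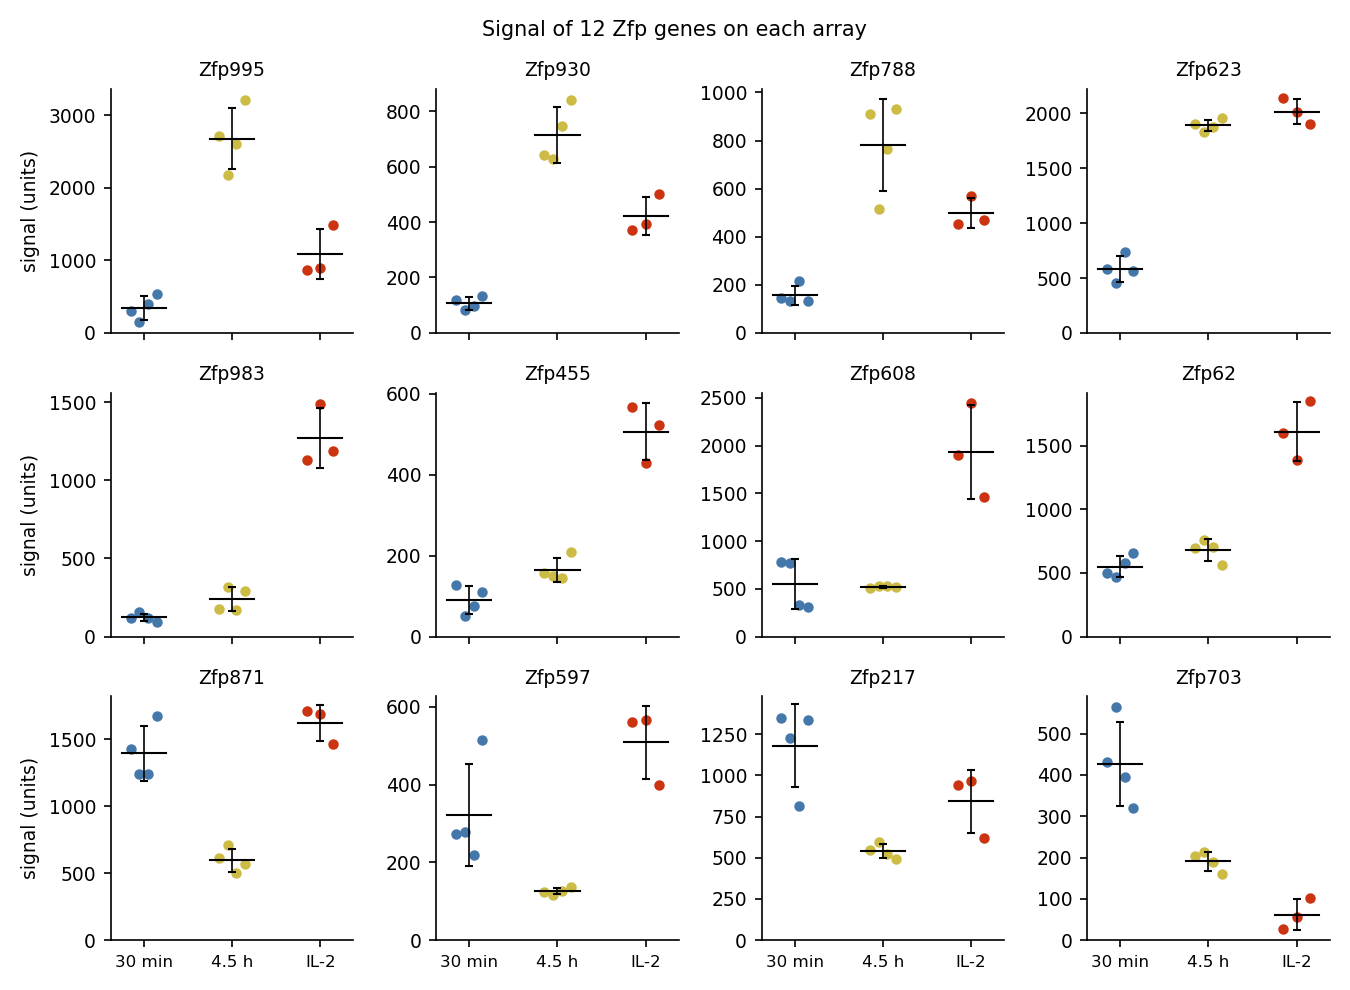
Deposited signal of 12 Zfp genes on each of the 11 arrays, with a separate vertical axis from 0 for each gene, the group mean as a line and its SD as a bar. Zfp995, Zfp930, Zfp788 and Zfp623 are lowest at 30 min, Zfp983, Zfp455, Zfp608 and Zfp62 are highest with IL-2, Zfp871, Zfp597 and Zfp217 are lowest at 4.5 h, and Zfp703 is lowest with IL-2.

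The second comparison set the IL-2 group against the 30 min group and so joins IL-2 with elapsed time. In it 54 Zfp genes rose, 1 fell and 121 did not pass the test. Of the 54, 5 had reached the signal threshold only through the IL-2 arrays, and 49 had not. The background was 9.37% rising and 5.39% falling among genes at the same signal, and 6.32% and 4.26% among all probe sets tested. By adjusted p alone 88 were higher and 6 lower, against 20.4% and 16.9% of genes at the same signal. In 98 genes every IL-2 array was above every 30 min array and in 12 every one was below, against 25.9% and 23.5%. The median log2 difference was 0.59 for the Zfp genes (middle 50% from 0.13 to 1.15) against -0.00 for those genes. These groups shared a scan day. Within that day, with 3 arrays against 3, 50 rose and 1 fell, and with scan day as a block the counts were 52 and 1. The 30 min arrays are the reference here and in the comparison over time, so the results of the 2 comparisons are not independent.

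The gene with the largest difference was Zfp983, also from the chromosome 17 cluster. It reached the signal threshold only through the IL-2 arrays (mean of the other 8 arrays 180.3), so its being high there is in part how it was chosen. It read 121, 154, 120 and 93.3 at 30 min, 179, 316, 167 and 292 at 4.5 h, and 1132, 1492 and 1189 with IL-2. The IL-2 arrays stood far above all others, 9.36-fold over the 30 min group (log2 difference 3.23 ± 0.25, adjusted p = 2.09e-05). The fold is on the scale of signal + 16, which understates changes of dim probe sets.

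Zfp455 read 128, 49.8, 74.9 and 111 at 30 min and 566, 430 and 524 with IL-2, a log2 difference of 2.35 ± 0.26. It too reached the threshold only through the IL-2 arrays (mean of the other 8 arrays 128). Its neighbour Zfp953 on chromosome 13 read 169, 98.2, 134 and 187 at 30 min and 728, 600 and 849 with IL-2, a difference of 2.21 ± 0.21. For both genes each IL-2 array exceeded every 30 min array. Zfp942 (2.10 ± 0.26) and Zfp263 (2.10 ± 0.24) complete the 5 largest rises. Zfp263 was read by a probe set that can bind more than 1 transcript, and its other probe set gave 1.75. The other probe set of Zfp942 gave -0.17 ± 0.42, and the mean over both lost the call.

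Zfp703 was the single gene that fell, and it reached the signal threshold only through the 30 min arrays. It read 26.9, 55.5 and 102 with IL-2, all below the 160 to 563 of the other 8 arrays, and its log2 difference from 30 min was -2.61 ± 0.30 (adjusted p = 0.000232). Members read by several probe sets could be checked in them: 46 of the 49 other probe sets of 28 rising or falling members had the same sign, and 22 passed the test too.

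**Figure D3:**
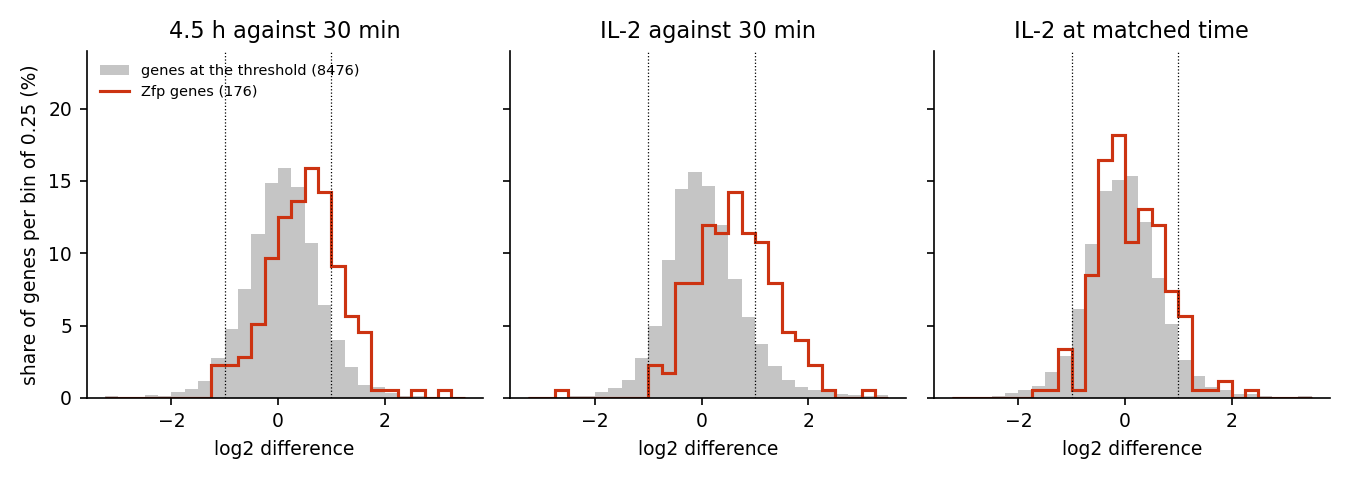
Share of genes per bin of 0.25 in log2 difference for the 3 comparisons, for 176 Zfp genes (red outline) and 8476 genes at the same signal threshold (grey), with dotted lines at a 2-fold difference and values beyond the axis placed in the end bins. The Zfp outline lies to the right of the grey one over time (median 0.54 against 0.09) and for IL-2 against 30 min (0.59 against -0.00), and near it at matched time (0.02 against -0.05).

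The third comparison asked what differed with IL-2 once elapsed time was matched, by setting the IL-2 group against the 4.5 h group. Here 15 Zfp genes rose, 8 fell and 153 did not pass the test. Of the 15, 3 (Zfp983, Zfp455 and Zfp58) had reached the signal threshold only through the IL-2 arrays, and of the 8, 2 (Zfp141 and Zfp579) only through the 4.5 h arrays and 1 (Zfp703) only through the 30 min arrays. The background among genes at the same signal was 6.17% rising and 6.47% falling against 8.52% and 4.55% of the Zfp genes, so the members' shares were near the background. Among all probe sets tested 6.63% rose and 5.51% fell. By adjusted p alone 44 Zfp genes were higher and 22 lower, against 17.8% and 20.5% of genes at the same signal. In 63 genes every IL-2 array was above every 4.5 h array and in 37 every one was below, against 27.7% and 31.4%. The median log2 difference was 0.02 (middle 50% from -0.35 to 0.55) against -0.05 for those genes. Rises made up 65.2% of the called Zfp genes. With arrays centred on ribosomal protein genes all 72 called members rose, and in the comparison over time that share went from 90.5% to 64.3% (18 rose and 10 fell). The same centring put the all-probe-set median at 0.73 for matched time and -0.29 over time.

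The genes that rose with IL-2 at matched time fall into a few patterns. Zfp983 was 5.20-fold higher (log2 difference 2.38 ± 0.25, adjusted p = 0.000135), with the values given above. Zfp597 read 561, 565 and 400 with IL-2 against 117 to 136 at 4.5 h, a difference of 1.87 ± 0.25. Zfp871 differed by 1.42 ± 0.17. Both had fallen over time without IL-2, and neither passed the test between IL-2 and 30 min (log2 differences of 0.69 ± 0.25 and 0.22 ± 0.17). The same 4.5 h arrays enter the fall and the rise, so these results are not independent.

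Zfp608, which represses the recombinase genes Rag1 and Rag2 in mouse thymocytes, read 782, 769, 331 and 308 at 30 min, 509, 528, 533 and 523 at 4.5 h, and 1896, 2445 and 1465 with IL-2. The cycloheximide groups overlapped and every IL-2 array lay above both. Its difference at matched time was 1.83 ± 0.33 (adjusted p = 0.0028).

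Zfp62 read 499, 467, 582 and 656 at 30 min, 698, 757, 704 and 563 at 4.5 h, and 1600, 1386 and 1849 with IL-2, a difference of 1.22 ± 0.17 at matched time (0.36 ± 0.19 on its other probe set). Zfp113 read 357, 285, 258 and 293 at 30 min, 353, 314, 383 and 299 at 4.5 h, and 685, 797 and 934 with IL-2, a difference of 1.21 ± 0.16. On the brightest probe sets of both genes the 2 groups without IL-2 overlapped and the IL-2 group stood above them. The other probe set of Zfp62 differed in this: it rose over time without IL-2, by 1.44 ± 0.18, and was not called at matched time. Zfp455 (1.53 ± 0.26) and Zfp758 (1.19 ± 0.25) also rose, each with all IL-2 arrays above all arrays of both other groups.

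Among the 8 that fell, Zfp703 had the largest difference, -1.53 ± 0.30 (adjusted p = 0.00433). Zfp580 read 395, 571, 312 and 324 at 30 min, 516, 537, 474 and 590 at 4.5 h, and 196, 257 and 191 with IL-2, a difference of -1.25 ± 0.21. Zfp362 read 906, 730, 772 and 1007 at 30 min, 1037, 1578, 1195 and 1167 at 4.5 h, and 527, 509 and 518 with IL-2, a difference of -1.22 ± 0.17. In these 3 genes the IL-2 arrays were the lowest of all 11. Zfp523, a relative of the promoter-binding factor Zfp143, read 534 to 653 at 4.5 h and 208 to 284 with IL-2, a difference of -1.20 ± 0.18, but its 30 min arrays (213 to 338) overlapped the IL-2 arrays.

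The other 4 falls were less firm. Zfp995 differed by -1.32 ± 0.37 (adjusted p = 0.0228), against 0.12 ± 0.22 on its other probe set, and the adjusted p was 0.0825, 0.0788 or 0.0572 without IL-2 replicate 1, IL-2 replicate 2 or 4.5 h replicate 4. Zfp141 differed by -1.10 ± 0.28, and by -0.79 (adjusted p = 0.0606) without IL-2 replicate 4. Zfp956 differed by -1.04 ± 0.26, and by -0.70 without IL-2 replicate 1. Zfp579 differed by -1.01 ± 0.19, and by -0.89, -1.0 or -0.95 without IL-2 replicate 2 or 4.5 h replicates 2 or 4, each short of the 2-fold threshold.

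Many of these genes lie near each other. Members were joined into a run when no more than 9 protein-coding genes of the RefSeq reference lay between neighbours, and 9 runs held at least 4 members. The remaining 116 members had median log2 differences of 0.44 over time, 0.49 for IL-2 against 30 min and 0.00 at matched time. The runs with the most members are described below. Medians of the others went from -0.55 (Zfp628 to Zfp580) to 0.29 (Zfp84 to Zfp82) at matched time. Over time they went from 0.08 (Zfp84 to Zfp82) to 1.25 (Zfp788 to Zfp715). The chromosome 8 run (Zfp930 to Zfp866) had 1.05 over time and -0.41 at matched time. At matched time 0 of its 5 members were positive on the brightest probe sets, against 91 of all 176 members. The other probe set of Zfp930 had 0.30 ± 0.20 there.

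The run on chromosome 17 from Zfp160 to Zfp758 held 13 members. All 13 had a positive difference over time (median 1.06, 7 rose) and between IL-2 and 30 min (median 1.57, 10 rose), while at matched time the median was 0.08, with 8 positive. Most members were positive in the first 2 of these: 137 of all 176 over time and 140 between IL-2 and 30 min. Of all members 21.6% and 30.7% rose, and 91 were positive at matched time. Members of the run could differ: at matched time Zfp983 had a difference of 2.38 and Zfp995, the next member in order, -1.32. Zfp983 had reached the signal threshold only through the IL-2 arrays, and the other probe set of Zfp995 had 0.12 ± 0.22. The probe sequences are not used here, and signal shared between close relatives cannot be told apart.

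Within that run, 2 pairs of genes point away from each other with start sites close together. Zfp942 and Zfp943 start 95 bases apart and Zfp944 and Zfp758 start 63 bases apart. The 300-base promoter windows of RefSeq (250 bases before and 50 after the start, GRCm38.p6) of Zfp943 and Zfp758 are shown because they are near copies: 292 of 293 aligned positions were identical, though the starts lie 398904 bases apart. The windows of Zfp942 and Zfp944 were identical at 274 of 275 aligned positions. Capitals mark the single GC box (GGGCGG on either strand), a motif found in 52.2% of the members' promoters, 64.3% of those of genes at the same signal and 35.7% of all.
Zfp943, chr17:21962309-21962608, plus strand: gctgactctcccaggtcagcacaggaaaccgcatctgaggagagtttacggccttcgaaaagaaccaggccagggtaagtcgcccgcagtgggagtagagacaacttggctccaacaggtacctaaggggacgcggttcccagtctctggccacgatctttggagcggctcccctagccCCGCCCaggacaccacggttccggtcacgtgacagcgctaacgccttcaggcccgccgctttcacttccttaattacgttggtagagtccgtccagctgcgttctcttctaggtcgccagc
Zfp758, chr17:22361213-22361512, plus strand: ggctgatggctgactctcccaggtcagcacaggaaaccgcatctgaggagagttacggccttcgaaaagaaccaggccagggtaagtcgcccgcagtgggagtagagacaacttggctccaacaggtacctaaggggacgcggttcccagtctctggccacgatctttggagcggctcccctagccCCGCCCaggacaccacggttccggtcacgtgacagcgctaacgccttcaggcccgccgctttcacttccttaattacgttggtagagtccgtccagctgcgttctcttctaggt

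These 4 genes had log2 differences between IL-2 and 30 min of 2.10 (Zfp942), 2.00 (Zfp943), 1.11 (Zfp944) and 1.80 (Zfp758), and all rose. Over time the first pair rose, by 1.73 and 1.46, while Zfp944 (0.45 ± 0.18) and Zfp758 (0.61 ± 0.23) did not pass the test. This contrast depends on the probe set. Of the 2 other probe sets of Zfp944, 1 rose over time (1.93 ± 0.21) and 1 was not called (-0.09 ± 0.45). The other probe set of Zfp942 fell (-1.34 ± 0.39), and that of Zfp943 (1.13 ± 0.40) did not pass. At matched time only Zfp758 (1.19 ± 0.25) rose, and the others had 0.38 ± 0.26, 0.55 ± 0.26 and 0.66 ± 0.19. The differences between these genes were not tested, and Zfp943 and Zfp944, like Zfp58, Zfp458 and Zfp595 below, are named after their values were seen.

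The run on chromosome 13 from Zfp712 to Zfp748 held 9 members. Of these, 4 (Zfp455, Zfp458, Zfp595 and Zfp58) had reached the signal threshold only through the IL-2 arrays, so the run's counts with IL-2 are in part how its members were chosen. At matched time all 9 had a positive difference, with a median of 0.64, and 2 of them, Zfp455 and Zfp58 (1.07 ± 0.31), rose. The other 5 had values from 0.02 (Zfp712) to 0.84 (Zfp429) at matched time, and none of these passed the test. Between IL-2 and 30 min all 9 were positive too (median 1.38) and 6 rose, and over time 6 were positive (median 0.81) and 2 rose. Of all 176 members, 91 were positive at matched time, 140 between IL-2 and 30 min and 137 over time. The shares of all members that rose were 8.52%, 30.7% and 21.6%. Zfp458 read a mean of 224 ± 57.2 (SD, n = 4) at 30 min, 168 ± 36.7 (n = 4) at 4.5 h and 328 ± 43.8 (n = 3) with IL-2, and passed the test in no comparison. Zfp595 read 108 ± 25.9, 227 ± 14.1 and 343 ± 67.7, and rose between 30 min and IL-2.

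**Figure D4:**
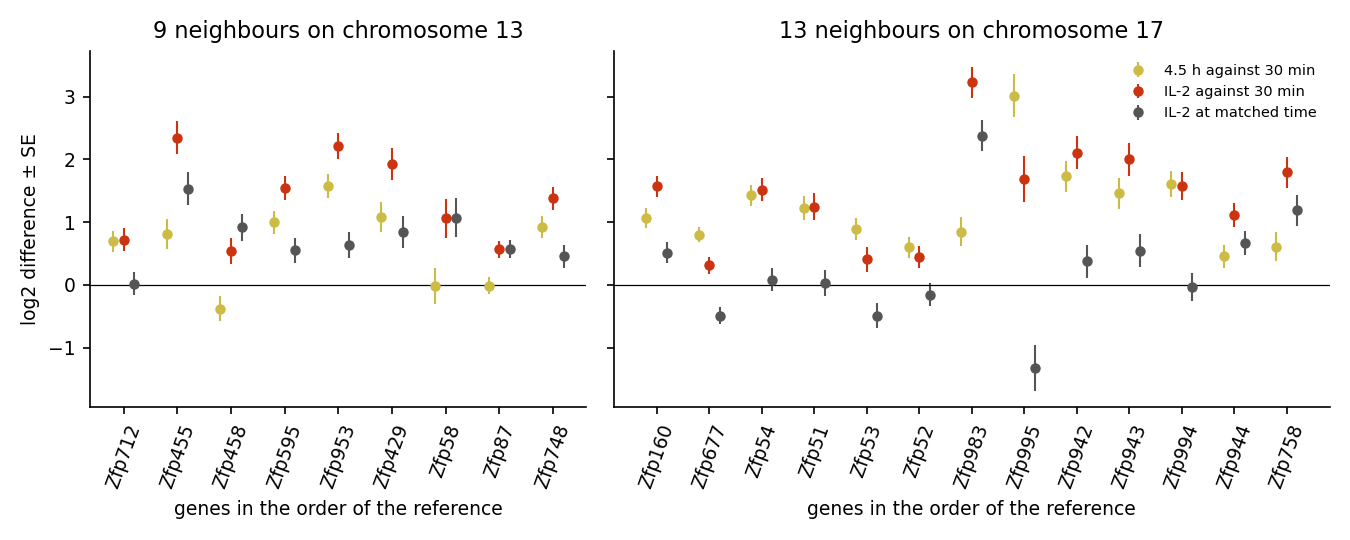
Log2 difference with its SE from limma for each member of 2 runs of neighbouring Zfp genes, 9 on chromosome 13 and 13 on chromosome 17, in the order of the reference, for the 3 comparisons. At matched time (dark grey) all 9 genes of the first run lie above 0 (median 0.64), while those of the second spread from -1.32 to 2.38.

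STAT transcription factors, among them STAT5 that acts below the IL-2 receptor, bind palindromes of the form TTCNNNGAA, the same letters on both strands. This motif was in 15.4% of the 182 RefSeq promoters of 148 members, against 6.73% of the promoters of genes at the same signal and 8.3% of all promoters. Of the 9 genes of the chromosome 13 run, 8 had a promoter entry and 6 of these held the motif. Their windows, 25 bases to each side, are shown because neighbours in the run carry it at different distances from the start. The bases after the motif nevertheless read much alike in Zfp455, Zfp458, Zfp595, Zfp58 and the Zfp953 window nearer the start. Those of Zfp429 and the other Zfp953 window differ, and these windows were not aligned. Capitals mark the motif, the strand is the gene's own, and the build is GRCm38.p6.
Zfp455, chr13:67194397-67194455, plus strand: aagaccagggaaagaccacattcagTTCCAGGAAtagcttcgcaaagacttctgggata
Zfp458, chr13:67269167-67269225, minus strand: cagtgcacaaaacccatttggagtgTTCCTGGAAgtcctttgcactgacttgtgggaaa
Zfp595, chr13:67332606-67332664, minus strand: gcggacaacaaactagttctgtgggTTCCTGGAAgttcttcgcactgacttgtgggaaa
Zfp953, chr13:67360694-67360752, minus strand: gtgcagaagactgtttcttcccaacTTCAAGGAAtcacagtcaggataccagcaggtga
Zfp953, chr13:67360642-67360700, minus strand: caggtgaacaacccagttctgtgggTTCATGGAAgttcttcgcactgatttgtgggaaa
Zfp429, chr13:67399767-67399825, minus strand: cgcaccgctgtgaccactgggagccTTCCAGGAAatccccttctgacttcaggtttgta
Zfp58, chr13:67500548-67500606, minus strand: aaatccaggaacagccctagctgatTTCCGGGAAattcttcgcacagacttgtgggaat
The first base of the motif lay between 33 (Zfp429) and 206 (Zfp458) bases before the start. A match is a description of letters and not of a bound site. Over all members, the 27 with the motif had a median difference at matched time of 0.52, with 4 called and all of these rising, and the 121 with a promoter but without the motif had -0.03, with 8 rising and 6 falling. Over time the medians were 0.49 and 0.55. The 27 include the 4 genes of the run that reached the signal threshold only through the IL-2 arrays, and Zfp455 and Zfp58 are among the 4 that rose. The motif was searched with the values known, several members share a run, and no test was made.

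The cAMP response element TGACGTCA, a palindrome, was in 3.85% of the members' promoters, 3.35% of those of genes at the same signal and 1.79% of all. Members' promoters held a median of 17 CpG dinucleotides, between the 21 of genes at the same signal and the 7 of all promoters.

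Of 30 Zfp genes of known role that were listed, 24 were members. The 3 that act in ribosome assembly or translation were not called on their brightest probe sets. Zfp622, whose yeast counterpart acts in the assembly of the large ribosomal subunit, read 8456 ± 807 (SD, n = 4) at 30 min, 6942 ± 549 (n = 4) at 4.5 h and 8403 ± 414 (n = 3) with IL-2. Zfp593, another factor of the large subunit, went from 1796 ± 343 to 3528 ± 143 over time, a log2 difference of 0.99 ± 0.15 that stayed just under the 2-fold threshold. Its other probe set rose over time by 1.59 ± 0.16 and between 30 min and IL-2 by 1.84 ± 0.18. Zfp598, the ubiquitin ligase that marks collided ribosomes, read 1171 ± 334, 1742 ± 99.4 and 1255 ± 112 in the 3 groups and did not pass the test.

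Of 4 members known from silencing and imprinting, 2 rose between 30 min and IL-2, a comparison in which 30.7% of all members rose. Zfp638, whose human counterpart NP220 silences unintegrated retroviral DNA, read 2439, 2447, 1930 and 2947 at 30 min, 3875 to 4405 at 4.5 h and 5608 to 6138 with IL-2. The groups did not overlap, and the log2 difference between IL-2 and 30 min was 1.29 ± 0.15. Its other probe set had 0.95 ± 0.23 in that comparison and was not called. That probe set had -0.28 ± 0.21 over time and rose at matched time, by 1.23 ± 0.23. Zfp445, which maintains imprints in the mouse, rose by 1.31 ± 0.14 between IL-2 and 30 min, from 1641 ± 158 to 4074 ± 328. Its brightest probe set had 0.74 ± 0.13 over time and 0.57 ± 0.14 at matched time, neither called. Its 2 other probe sets had 0.11 ± 0.13 and 0.02 ± 0.23 over time. At matched time both of these rose, by 1.48 ± 0.15 and 1.26 ± 0.25. Between IL-2 and 30 min Zfp809, which silences retroviruses in mouse embryonic cells, had 0.79 ± 0.22. Zfp568, which represses a placental Igf2 transcript in the mouse, had 0.21 ± 0.26 there, and neither gene passed the test.

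Among RNA-binding and nucleolar proteins, Zfp346, which binds double-stranded RNA, rose by 1.21 ± 0.22 over time, and by 1.14 ± 0.24 between 30 min and IL-2, or 0.99 without IL-2 replicate 4. Zfp330, a nucleolar protein, rose over time by 1.20 ± 0.18, from 1599 ± 327 to 3664 ± 586. Zfp106, an RNA-binding protein needed in mouse motor neurons, differed by no more than 0.22 in size on its brightest probe set, but of its 2 other probe sets 1 fell over time, by 1.42 on the log2 scale. Zfp207, a spindle protein, read means of 4393, 3748 and 3865 on its brightest probe set, which was not called. Of its 4 other probe sets, 2 fell over time (-2.01 ± 0.19 and -1.27 ± 0.35), and the first of these rose at matched time (1.33 ± 0.20).

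Among regulators of transcription and signalling, Zfp110, which binds a neurotrophin receptor, rose over time by 1.16 ± 0.16. It also rose between 30 min and IL-2, by 1.06 ± 0.17, a value that went under the 2-fold threshold without IL-2 replicate 4 (0.97) or 30 min replicate 1 (0.96) or 2 (1.00). Zfp384 rose in that comparison by 1.01 ± 0.12, and had 0.97 without IL-2 replicate 4 and 0.98 without 30 min replicate 2. Zfp148, a factor that binds GC-rich DNA, read 2651 ± 517, 1563 ± 78.1 and 3142 ± 905, with differences of -0.73 ± 0.21 over time and 0.96 ± 0.22 at matched time that were under 2-fold. Of its 5 other probe sets 1 rose at matched time, with 1.01 ± 0.24. Zfp335, needed for T cell maturation in the mouse, had 0.79 ± 0.12 over time, and Zfp410, an activator of Chd4, had 0.62 ± 0.17.

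The remaining members of that list were not called in any comparison on their brightest probe sets. Their log2 differences between IL-2 and 30 min were 0.35 ± 0.13 for Zfp91, a ubiquitin ligase, 0.39 ± 0.18 for Zfp281, a regulator of stem cell genes, 0.82 ± 0.18 for Zfp292, -0.21 ± 0.17 for Zfp131 and 0.61 ± 0.17 for Zfp746, a repressor linked to Parkinson's disease. Of the 5 other probe sets of Zfp292, 1 fell over time (-1.73 ± 0.25) and rose at matched time (2.12 ± 0.27). Of the other members with the highest signals, Zfp655, which binds the signalling protein Vav1, rose between 30 min and IL-2 by 1.47 ± 0.19, from 1751 ± 393 to 4788 ± 400. Its brightest probe set had 0.53 ± 0.18 over time and 0.94 ± 0.19 at matched time, neither called. The 2 other probe sets of Zfp655 had -0.42 ± 0.22 and -0.19 ± 0.17 over time. At matched time both rose, by 1.18 ± 0.23 and 1.82 ± 0.18. Zfp52 read 2921 ± 518, 4402 ± 580 and 3941 ± 384, and Zfp512 read 7857 ± 1402, 3929 ± 397 and 5483 ± 1474, and neither passed the test in any comparison.

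The cofactors through which KRAB proteins silence were mostly not called. Of 34 genes listed, 32 were tested. Over time 3 rose and 29 did not pass the test, with a median log2 difference of 0.18: Cbx1 (1.02 ± 0.18) and Cbx3 (1.62 ± 0.46), which are heterochromatin proteins, and Uhrf1 (1.82 ± 0.24), which guides maintenance DNA methylation. The Cbx3 probe set was dim, with a mean of 33.4 at 30 min. These counts were 3 of 32 here and 3 of 32 in the next comparison. They are near the background of 8.31% and 9.37% of genes at the signal threshold. Of the 32, 29 reached that threshold, and Cbx3 (mean signal 80.1 over the 11 arrays) and Suv39h2 (156) did not. Between IL-2 and 30 min 3 rose and 29 did not pass: Morc3 (1.18 ± 0.20), Suv39h2, a histone methyltransferase (1.44 ± 0.17), and Resf1, a cofactor of retroviral silencing (1.71 ± 0.19), with a median over the list of -0.11.

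At matched time Resf1 rose, by 2.01 ± 0.19, and Chd3, a chromatin remodeller (-1.03 ± 0.35), and Uhrf1 (-2.36 ± 0.26) fell, with a list median of -0.29. The background was 6.17% rising and 6.47% falling among genes at the signal threshold. Trim28 itself read 4277 ± 824, 5103 ± 250 and 2735 ± 116 in the 3 groups. Its difference at matched time of -0.90 ± 0.16 (adjusted p = 0.0021) was under 2-fold. Setdb1 read 609 ± 84.8, 828 ± 59.7 and 969 ± 168, with no difference of 2-fold.

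C2H2 zinc finger genes with other names were set beside the Zfp genes. Of 44 listed, 41 were tested. Over time 4 rose, Zbtb1 (1.24 ± 0.15), Zbtb2 (1.46 ± 0.11), Zkscan3 (1.50 ± 0.17) and Ikzf5 (1.02 ± 0.14), and Prdm1, the Blimp-1 repressor of lymphocyte differentiation, fell (-1.57 ± 0.15). The list median was 0.28, against 0.54 for the Zfp genes. Between IL-2 and 30 min 5 rose, Ikzf4 (2.18 ± 0.23), Zbtb1 (1.27 ± 0.16), Zbtb11 (1.24 ± 0.15), Zbtb2 (1.22 ± 0.12) and Sp4 (1.16 ± 0.26). In that comparison 3 fell: Bcl6, a lymphocyte repressor (-1.85 ± 0.17), Prdm1 (-1.11 ± 0.16) and Zkscan17 (-1.03 ± 0.18), and the list median was 0.28 against 0.59. At matched time Ikzf4 (1.82 ± 0.23) and Zkscan1 (1.27 ± 0.19) rose and Bcl6 (-1.35 ± 0.17) fell, with a list median of 0.11. The background among genes at the signal threshold, which 38 of the 41 reached, was 8.31% rising and 5.39% falling over time. It was 9.37% and 5.39% between IL-2 and 30 min, and 6.17% and 6.47% at matched time. The counts of this list are near those shares, and the difference between the lists was not tested.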

How the data were processed

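Total RNA of CTLL-2 cells was measured on 12 arrays (Affymetrix Mouse Genome 430 2.0), 4 in each of 3 groups taken from the sample titles. The deposited values are linear intensity signals, produced by GCOS 1.3 (per the submitters' processing notes) and scaled by the authors so that the trimmed mean of each array, without the lowest and highest 2%, is 500. Signals have no read depth, so the number of arrays limits the precision.

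Of 45101 probe sets, 64 controls were left out. Signals were taken as log2(signal + 16) and fitted in R 4.3.3 by lmFit and eBayes of limma 3.58.1 on 11 arrays of 3 groups, without IL-2 replicate 3. Benjamini-Hochberg adjustment ran over the 27022 probe sets with a mean at or above the 40th percentile (signal 33.57). A probe set was called at adjusted p under 0.05 and at least 2-fold. SE values are limma's. Each gene is its brightest probe set of 1 symbol.

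The genes, lists and motifs were chosen with earlier results of these data known, so no list has a p of its own. Named genes are the called members with the largest separated differences (up to 8 each way, or 5 for IL-2 against 30 min), the 6 of highest signal, the 2 on each side of the threshold, the listed genes of known role, and every called gene of the other lists. Classes by protein domain had been planned and were not made, as protein sequences were not used here. Promoters are RefSeq's (GRCm38.p6). The fit was tested on simulated data. Other arrays, normalizations, pseudocounts, filters, fits, blocks, call rules and probe sets were tried, and each array was left out in turn. Figures were drawn with matplotlib 3.10.9 (Python 3.11.15).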

Additional observations from a re-analysis of the deposited data

Results flagged for a closer look

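In 4 of 102 groups of 4 arrays checked over the named genes, 1 array lay far from the other 3, and chance gives about 1 in 20. Zfp512 read 3340 on replicate 2 of the 4.5 h group, where the others read 4046 to 4187. Zfp189 read 130.5 on the same array, where the others read 165.9 to 170.5. Zfp598 read 1669 on replicate 3 of the 30 min group, which was scanned on another day than its other replicates, and these read 959 to 1028. Zfp568 read 254.5 on replicate 1 of the 30 min group, against 154.5 to 169.3.

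On the left-out array, labelled IL-2 replicate 3, 21 members were above all 11 other arrays (11.9%, against 24.4% of genes at the same signal) and 99 were below all of them (56.2%, against 41.6%). Zfp703 read 4098 there against at most 563 elsewhere, Zfp568 read 2516 against at most 375, and Zfp346 read 4851 against at most 1611.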

How the results depend on the processing

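The members' median log2 difference minus that of all probe sets was 0.53 over time (0.33 to 0.61 over 25 alternatives), 0.64 for IL-2 against 30 min (0.31 to 0.78 over 27) and 0.04 at matched time (-0.18 to 0.13 over 25). With all 12 arrays 3 members were called at matched time (median -0.227), 16 over time and 8 for IL-2 against 30 min (median 0.252), and Zfp638 had -0.0705 in the last comparison. Quantile normalization gave medians of -0.0114 at matched time and 0.501 for IL-2 against 30 min. Centring on the array median gave 0.628 over time and 0.718 for IL-2 against 30 min. Centring on ribosomal protein genes called 72 members at matched time (median 0.767) and 93 for IL-2 against 30 min (median 1.04). The members' median over time was then 0.241. With this centring the median of all probe sets was 0.73 at matched time, -0.29 over time and 0.40 for IL-2 against 30 min. A pseudocount of 64 left 15 calls at matched time. With no fold threshold 66, 103 and 94 members passed at matched time, over time and for IL-2 against 30 min. Averaging all probe sets of a gene gave medians of 0.0842, 0.384 and 0.549. At a signal of 400 or more, 13 members were called at matched time, and the other medians were 0.617 and 0.733. Leaving out each array gave 17 to 23 calls at matched time, 35 to 48 over time and 50 to 59 for IL-2 against 30 min, with medians of 0.016 to 0.047, 0.491 to 0.570 and 0.579 to 0.630.

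Replicate numbers were not taken to pair arrays, since same-number arrays correlated at -0.018 to 0.216. With a replicate block 20 members were called at matched time, 42 over time and 54 for IL-2 against 30 min. Of 56 named calls, 6 held under every alternative run for them, and 44 were lost with all 12 arrays. The causes were not tested, except that fewer genes or a stricter or looser call rule change counts by construction. Zfp263 over time and Zfp110 for IL-2 against 30 min lost their calls without probe sets that can bind several transcripts. Dim members, such as those near 200 units, have the least signal over background.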
